A study of Mus musculus with 12 samples.

Results

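The circadian clock genes described here are Per1, Per2, Per3, Dbp, Tef, Hlf, Nr1d1, Nr1d2, Arntl and Npas2, which were chosen by name, with earlier results of these data known, as core clock genes and clock outputs of both phases. They are 10 of the 41388 genes in a count table of polyA RNA from the medial prefrontal cortex (PFC), dissected by hand, of male Swiss Webster mice aged 10 weeks. The table covers 12 libraries, 4 in each of 3 groups. Conventional mice (CON) were raised with microbes in the standard animal unit, germ-free mice (GF) were kept in isolators without microbes, and exGF mice were germ-free until postnatal day 21, when they were moved out of the isolators to the standard unit and colonized there. Each library was a pool of RNA from 2 to 3 animals of its group, so every SD and p-value measures the spread between pools, library preparation included, and not between single mice. The groups shared a diet and a light and dark schedule, but the time of day at which animals were culled is not given in the sources used here, and that time cannot be told apart from the group. CON and exGF mice shared the standard unit at week 10, but early housing in isolators and the move out of them cannot be told apart from the group in exGF, nor can lasting housing in isolators in GF.

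In the cell-autonomous clock, the activators Arntl (BMAL1) and Clock or Npas2 bind DNA as a pair and switch on the Per and Cry genes, whose proteins then block that pair. The same activators switch on Nr1d1 and Nr1d2, nuclear receptors that repress Arntl, and the PAR bZIP factors Dbp, Tef and Hlf, which carry the rhythm to further genes. In tissues with a running clock the Per, Nr1d and Dbp transcripts therefore peak at another phase of the day than Arntl and Npas2, and in cortex Per1 is also induced by neuronal activity.

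Counts on genes ranged from 22757169 to 29134760 in CON libraries, from 13280926 to 23465074 in GF libraries and from 22702599 to 28615407 in exGF libraries, with GF replicate 1 the lowest. The count of a member in a library ran from 280 to 9302, and all 10 members passed the filter on low counts in each comparison. Levels are given as CPM, with library sizes adjusted by trimmed mean of M-values (TMM), and the 4 exGF libraries carry the names GFR1 to GFR4 that the count table gives them. The chi-square per gene between libraries of a group lay between 9.26 and 40.2, and its value under sampling alone is 1, so no library was a copy of another. With 1 library per pool, spread between pools and spread from library preparation cannot be told apart.

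The tissue label was checked against marker genes. The 7 cortical neuron markers summed to between 8459.8 and 10488 CPM in each library, with Camk2a the most abundant. Among 6 markers of the suprachiasmatic nucleus and hypothalamus, the seat of the central clock, 5 (Avp, Six6, Lhx1, Hcrt and Pmch) had at most 20 counts in any library and Six3 at most 54. Striatal markers, 6 genes led by Ppp1r1b, summed to 266 CPM in CON replicate 2 and 264 CPM in GFR4 but to between 129 and 165 CPM in the other 10 libraries, so counts of called members are also given without these 2 libraries.

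Most members were higher in GF libraries than in CON libraries, but how many were called depended on the method: at an adjusted p under 0.1, edgeR's quasi-likelihood test called 0 of the 10 and DESeq2, the tool and threshold of the study, called 4. In the edgeR quasi-likelihood fit of GF against CON, 8 members had a positive log2 fold change and 2, Arntl and Npas2, a negative value, with a median of 0.30 over the members and 0.0069 over all 15542 genes tested. That fit called 39 genes in all (0.251%). At an unadjusted p under 0.05 it counted 6 members, all of them higher in GF, beside 8.69% of all genes in either direction. Per1, Dbp, Hlf and Nr1d1 lay above CON in every GF library, 4 of 10 members where 5.08% of all genes had groups that did not overlap. The members were chosen with earlier results of these data known. Their counts and medians beside those of all genes, here and below, are therefore a description and no test. DESeq2, fitted to the same 8 libraries and the same 15542 genes, called Per1, Dbp, Hlf and Nr1d1 among 194 genes in all. Without CON replicate 2, edgeR called 1 member, Dbp, among 44 genes in all. It also called 1 member without CON replicate 1 (Dbp, among 50 genes) and without CON replicate 4 (Per1, among 53 genes). With any other single library left out it called 0 members.

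**Figure D1:**
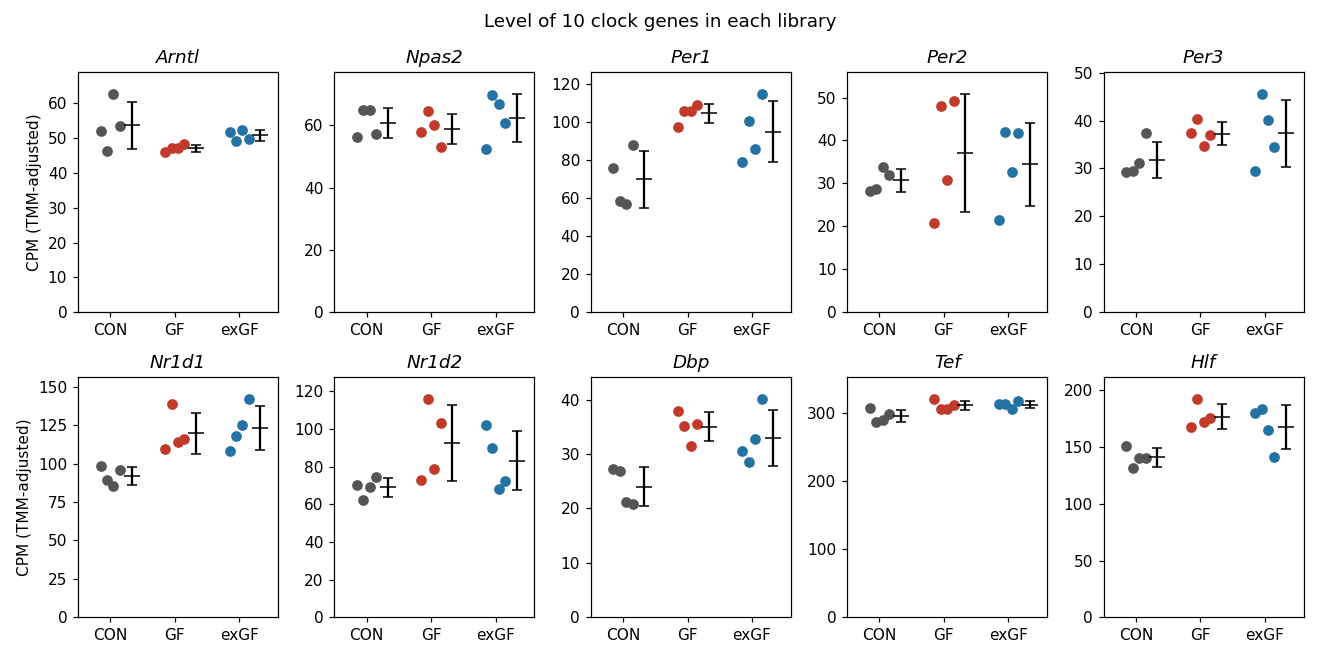
Level of each of the 10 clock genes in CPM (vertical axes, from 0) in the 4 CON, 4 GF and 4 exGF libraries (points), with the mean and SD of each group (black). Per1, Dbp, Hlf and Nr1d1 lie above all CON libraries in all 4 GF libraries, while Per2 runs from 20.8 to 49.1 CPM within GF.

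In exGF libraries 9 members had a positive log2 fold change from CON, and Arntl was the exception at -0.09. The edgeR quasi-likelihood fit called 0 members and 11 of 15813 genes (0.0696%). It counted 4 members at an unadjusted p under 0.05 (Per1, Dbp, Hlf and Nr1d1), beside 5.33% of all genes. Dbp and Nr1d1 lay above CON in all 4 exGF libraries, 2 of 10 members where 3.31% of all genes did not overlap. The median over the members was 0.23, beside -0.0065 over all genes tested. DESeq2, fitted to the same 15813 genes, called 1 member, Nr1d1, among 55 genes in all. Without CON replicate 2 and GFR4, edgeR called 0 members and 17 genes in all. Both comparisons use the same 4 CON libraries, so their values are set side by side and are not independent of each other.

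The direct comparison of GF with exGF tests whether the changes from CON differed between these groups, and no member was called in it. The edgeR quasi-likelihood fit called 0 of 15569 genes (0%), and at an unadjusted p under 0.05 it counted 0 members beside 6.65% of all genes. DESeq2, fitted to the same 15569 genes, called 0 members and 17 genes in all. Arntl, at -0.11, was the member that did not overlap between GF and exGF, 1 of 10 where the share over all genes was 3.32%. The 10 log2 differences ran from -0.11 to 0.16, with a median of 0.04.

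Per length, the members covered a range of levels in CON cortex that is given here as RPKM (CPM per kilobase of merged exons). Tef was the highest at 37.6 ± 1.17 RPKM (SD, n = 4), followed by Nr1d1 at 30.0 ± 1.91 and Hlf at 21.1 ± 1.23, and these did not overlap among the 4 CON libraries. Nr1d2 (12.8 ± 0.951), Npas2 (12.7 ± 0.986) and Per1 (12.4 ± 2.65) formed a middle group that did not differ beyond its spread. Dbp (8.03 ± 1.18) and Arntl (7.14 ± 0.911) overlapped as well, while Per2 (5.25 ± 0.453) and Per3 (3.31 ± 0.39) were lower, each below the range of the gene before it. RPKM divides by all merged exons, including bases shared with another gene, where pairs can be ambiguous and left uncounted. Dbp shares 18.01% of its exon bases, Nr1d1 8.55%, Tef 2.45% and Arntl 0.44%, so their levels may be too low by unlike amounts. In GF libraries Nr1d1, at 38.9 ± 4.21 RPKM, overlapped Tef at 39.5 ± 0.901, and Per1, at 17.4 to 19.4 RPKM, lay above Npas2 at 11.1 to 13.5 RPKM, which it had overlapped in CON. In exGF libraries Nr1d1 (40.0 ± 4.61 RPKM) and Tef (39.7 ± 0.613 RPKM) overlapped too.

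Arntl encodes the activator that pairs with CLOCK or NPAS2 (ENSMUSG00000055116; GRCm38, chromosome 7, 113207465 to 113314126, plus strand). Its level was 52.2, 46.3, 62.8 and 53.5 CPM in CON replicates 1 to 4, 45.9, 47.2, 47.2 and 48.3 CPM in GF replicates 1 to 4, and 51.9, 49.3, 52.3 and 49.8 CPM in GFR1 to GFR4. The GF libraries were close together and all below the 4 exGF libraries, whereas CON replicate 2 lay inside the GF range and CON replicate 3 stood above all others. The log2 fold change of GF from CON was -0.19 (SE 0.10; edgeR quasi-likelihood test, Benjamini-Hochberg adjusted p = 0.616) and that of exGF was -0.09 (SE 0.10, adjusted p = 0.973 by the same test). Between GF and exGF it was -0.11, with a 95% interval from -0.28 to 0.06 (edgeR quasi-likelihood, adjusted p = 0.789). Without CON replicate 3 the values of Arntl from CON were -0.104 in GF and -0.001 in exGF, and without CON replicate 2 they were -0.253 and -0.147.

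Npas2, a paralog of Clock that is abundant in forebrain (ENSMUSG00000026077; chromosome 1, 39193731 to 39363236, plus strand), had 56.3, 64.8, 65.0 and 57.1 CPM in CON, 57.8, 64.6, 60.0 and 53.0 CPM in GF, and 52.4, 69.7, 67.0 and 60.8 CPM in GFR1 to GFR4. The 3 groups overlapped fully. Its log2 fold change was -0.05 in GF (95% interval -0.24 to 0.15) and 0.03 in exGF (-0.20 to 0.26), with adjusted p = 0.92 and 0.997 in edgeR's quasi-likelihood test. Clock itself ranged from 55.0 to 84.7 CPM in CON, from 52.9 to 82.5 CPM in GF and from 51.1 to 74.7 CPM in exGF. Of the 4 activator genes (Arntl, Npas2, Clock and Arntl2), 0 were called and 0 had an unadjusted p under 0.05 in each edgeR comparison.

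Per1 encodes a period protein of the repressor complex (ENSMUSG00000020893; chromosome 11, 69095217 to 69109960, plus strand). It was at 76.0, 58.6, 56.7 and 88.1 CPM in the CON libraries, at 97.7, 106, 106 and 109 CPM in the GF libraries and at 79.0, 100.4, 86.0 and 115 CPM in GFR1 to GFR4. All 4 GF libraries exceeded CON replicate 4, the highest control, and lay within a narrow range, while GFR1 and GFR3 were below that control. In GF the log2 fold change was 0.59 (SE 0.13, 95% interval 0.32 to 0.85), with an unadjusted p of 0.000361 and an adjusted p of 0.119 in edgeR's quasi-likelihood test. The call depended on the method and on single libraries. Without CON replicate 4 the GF value was 0.717 and edgeR's quasi-likelihood adjusted p was 0.017. With all 8 libraries DESeq2 gave 0.00538, and over all alternatives, edgeR's quasi-likelihood test with other settings and DESeq2, the adjusted p ran from 0.00352 to 0.297. In exGF it was 0.44 (SE 0.15, edgeR quasi-likelihood adjusted p = 0.726), and GF exceeded exGF by 0.14 with an interval from -0.10 to 0.38. Without CON replicate 2 and GFR4 the exGF value of Per1 was 0.277, and with 1 library left out the difference between GF and exGF ran from 0.061 to 0.244.

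Per2, the period gene with the widest spread between GF pools and between exGF pools (ENSMUSG00000055866; chromosome 1, 91415982 to 91459324, minus strand), had 28.3, 28.8, 33.8 and 32.0 CPM in CON, 20.8, 48.0, 30.8 and 49.1 CPM in GF, and 21.5, 42.0, 32.6 and 41.8 CPM in GFR1 to GFR4. GF replicate 1 and GFR1 were the lowest of all 12 libraries and GF replicates 2 and 4 the highest, so that the CON values lay inside the range of both other groups. The coefficient of variation was 8.63% in CON, 37.0% in GF and 28.2% in exGF, where the median over genes above 20 CPM was 8.9%, 8.2% and 9.9%. The log2 fold change was 0.28 in GF (SE 0.20, adjusted p = 0.741) and 0.16 in exGF (SE 0.18, adjusted p = 0.973), both from edgeR's quasi-likelihood test. Single libraries moved these values. The GF value was 0.461 without GF replicate 1, 0.134 without GF replicate 2 and 0.121 without GF replicate 4. The exGF value was 0.34 without GFR1, 0.057 without GFR2 and 0.07 without GFR4.

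Per3, the third period gene (ENSMUSG00000028957; chromosome 4, 151003652 to 151044665, minus strand), stood at 29.3, 29.4, 31.2 and 37.3 CPM in CON, 37.3, 40.3, 34.6 and 36.9 CPM in GF, and 29.4, 45.6, 40.1 and 34.4 CPM in GFR1 to GFR4. CON replicate 4 reached the GF values and the other 3 CON libraries were below all of them. Its log2 fold change was 0.23 in GF (SE 0.10, unadjusted p = 0.0388, adjusted p = 0.545 by edgeR's quasi-likelihood test) and also 0.23 in exGF (SE 0.14, adjusted p = 0.952). With 1 library left out the exGF value ran from 0.126 to 0.339.

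Nr1d1, which encodes the repressor REV-ERB alpha (ENSMUSG00000020889; chromosome 11, 98767932 to 98775333, minus strand), measured 98.2, 89.3, 85.4 and 95.8 CPM in the CON libraries. It measured 109.6, 139, 114 and 116 CPM in the GF libraries and 108, 118, 125 and 142 CPM in GFR1 to GFR4. Every GF and exGF library was above every CON library, and GF and exGF overlapped. The log2 fold change was 0.38 in GF (SE 0.09, unadjusted p = 0.00103, adjusted p = 0.159) and 0.41 in exGF (SE 0.10, unadjusted p = 0.000956, adjusted p = 0.388) in the edgeR quasi-likelihood fits. Between GF and exGF it was -0.04, with a 95% interval from -0.26 to 0.18.

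For Nr1d2, the gene of REV-ERB beta (ENSMUSG00000021775; chromosome 14, 18204054 to 18239127, minus strand), the libraries gave 70.5, 62.2, 69.4 and 74.5 CPM in CON, 73.1, 116, 78.9 and 103 CPM in GF, and 102, 89.9, 68.4 and 72.6 CPM in GFR1 to GFR4. GF replicates 2 and 4, which were also the highest for Per2, stood well above CON, while GF replicate 1 fell inside the CON range. The log2 fold change in GF was 0.42 (SE 0.13, unadjusted p = 0.00574, adjusted p = 0.322 in edgeR's quasi-likelihood test), and in exGF it was 0.26 (SE 0.12, adjusted p = 0.924). With 1 library left out the exGF value ran from 0.16 to 0.341. GF exceeded exGF by 0.16 with an interval from -0.18 to 0.49 and values from 0.031 to 0.269 when 1 library was left out.

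Dbp encodes a PAR bZIP activator that is a direct output of the clock (ENSMUSG00000059824; chromosome 7, 45705088 to 45710203, plus strand). The CON libraries held it at 27.3, 26.8, 21.1 and 20.9 CPM, the GF libraries at 37.9, 35.1, 31.5 and 35.5 CPM, and GFR1 to GFR4 at 30.5, 28.5, 32.7 and 40.1 CPM. No GF or exGF library reached down to the highest CON value, and the GF and exGF ranges overlapped. In GF the log2 fold change was 0.54 (SE 0.11, 95% interval 0.30 to 0.79), with an unadjusted p of 0.000296 and an adjusted p of 0.11 in edgeR's quasi-likelihood test. Without CON replicate 1 that adjusted p was 0.0832 and without CON replicate 2 it was 0.0789, with log2 fold changes of 0.609 and 0.598. Over all alternatives, DESeq2 included, the adjusted p ran from 0.00433 to 0.263, against 0.11 in the edgeR quasi-likelihood test of all 8 libraries. In exGF the change was 0.45 (SE 0.13, edgeR quasi-likelihood adjusted p = 0.603), and GF differed from exGF by 0.08, with an interval from -0.16 to 0.33 and values from 0.021 to 0.192 when 1 library was left out.

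Hlf, a further PAR bZIP factor (ENSMUSG00000003949; chromosome 11, 90336536 to 90390895, minus strand), was found at 151, 131, 139.9 and 140.4 CPM in CON, 167, 192, 172 and 175 CPM in GF, and 179.7, 183, 165 and 141 CPM in GFR1 to GFR4. The GF libraries were all above CON, and so were the exGF libraries apart from GFR4, which lay in the CON range. The log2 fold change was 0.33 in GF (SE 0.08, unadjusted p = 0.000989, adjusted p = 0.159) and 0.24 in exGF (SE 0.09, adjusted p = 0.825), by edgeR's quasi-likelihood test.

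Tef, the member with the highest CPM and the third PAR bZIP gene (ENSMUSG00000022389; chromosome 15, 81802421 to 81826863, plus strand), was nearly level across the 12 libraries. It had 307, 287, 290.2 and 299 CPM in CON, 320.4, 306, 305 and 312 CPM in GF, and 313, 313, 305 and 317 CPM in GFR1 to GFR4. The coefficient of variation was 3.11% in CON, 2.28% in GF and 1.55% in exGF. Both log2 fold changes were 0.07, that of GF (95% interval -0.07 to 0.22, adjusted p = 0.809) and that of exGF (-0.08 to 0.22, adjusted p = 0.972), so edgeR's quasi-likelihood fit bounds any difference more closely here than for Per1 or Dbp. With 1 library left out the GF value of Tef ran from 0.047 to 0.089. With a spline offset for GC content and length it was 0.125.

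Among 17 further clock genes that are not members, edgeR's quasi-likelihood test called 1 in GF, beside 0.251% of all genes. Ciart, which encodes CHRONO, a repressor of the BMAL1 and CLOCK pair (ENSMUSG00000038550; chromosome 3, 95878503 to 95882251, minus strand), had 8.0, 6.14, 5.83 and 7.65 CPM in CON, 12.3, 12.1, 10.6 and 14.4 CPM in GF, and 10.6, 9.84, 8.19 and 13.6 CPM in GFR1 to GFR4. Each GF and exGF library was above each CON library. In GF its log2 fold change of 0.84 (SE 0.15) passed the threshold with an adjusted p of 0.0315 in edgeR's quasi-likelihood test, and in exGF the value was 0.61 (SE 0.17, adjusted p = 0.523). The GF call was lost without CON replicate 3 (edgeR quasi-likelihood adjusted p = 0.133) or without GF replicate 4 (0.124), with values of 0.764 and 0.755. GF exceeded exGF by 0.22, with an interval from -0.12 to 0.56 and values from 0.114 to 0.37 when 1 library was left out.

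Of the 9 repressor genes (the Per genes, Cry1, Cry2, Ciart, Bhlhe40, Bhlhe41 and Cipc), edgeR called 1 in GF (0.251% of all genes), and all 9 had positive values there, from 0.02 to 0.84. Bhlhe41 (0.44, SE 0.13, adjusted p = 0.313) and Bhlhe40 (0.37, SE 0.12, adjusted p = 0.346), which encode repressors that compete for E-boxes, had an unadjusted p under 0.05 in the edgeR quasi-likelihood fit of GF, and Bhlhe40 also in exGF (0.35, SE 0.15, adjusted p = 0.911). Without GFR4 the exGF value of Bhlhe40 was 0.187, and without CON replicate 2 and GFR4 it was 0.1. The cryptochromes had no unadjusted p under 0.05 in either comparison with CON. Cry1 had means of 12.8, 12.9 and 10.8 CPM in CON, GF and exGF (log2 fold change 0.02 in GF and -0.24 in exGF), and Cry2 had 136, 139 and 148 CPM (0.03 and 0.11). With 1 library left out the exGF value ran from -0.407 to -0.148 for Cry1 and from 0.056 to 0.177 for Cry2, the lower end without GFR4 and the upper without GFR1 in both.

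Among 4 nuclear receptor genes of the second loop (Nr1d1, Nr1d2, Rora and Rorb), edgeR called 0 in each comparison. At an unadjusted p under 0.05 it counted 3 in GF (8.69% of all genes) and 1 in exGF (5.33%). Rorb, a receptor gene of cortical layer neurons as well, had a log2 fold change of 0.21 in GF (SE 0.10, unadjusted p = 0.0496, edgeR quasi-likelihood adjusted p = 0.573). Nfil3, whose protein represses through the D-boxes that Dbp activates, was at 15.5, 11.0, 12.3 and 11.8 CPM in GF and at 10.7, 10.9, 10.0 and 11.2 CPM in GFR1 to GFR4, against 12.8, 11.5, 11.8 and 13.1 CPM in CON. The 4 exGF libraries were all below CON for Nfil3, with a log2 fold change of -0.21 (SE 0.10, edgeR quasi-likelihood adjusted p = 0.94). In the list of 6 kinase and ubiquitin pathway genes (Csnk1d, Csnk1e, Fbxl21, Btrc, Usp2 and Gsk3b), edgeR called 0 in each comparison, and GF values ran from -0.03 to 0.19. Usp2, a deubiquitinase gene with clock-driven expression, lay above CON in all 4 exGF libraries (0.22, SE 0.09, unadjusted p = 0.0247, edgeR quasi-likelihood adjusted p = 0.833). Its GF value of 0.19, the highest of that list, was 0.088 without GF replicate 1.

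**Figure D2:**
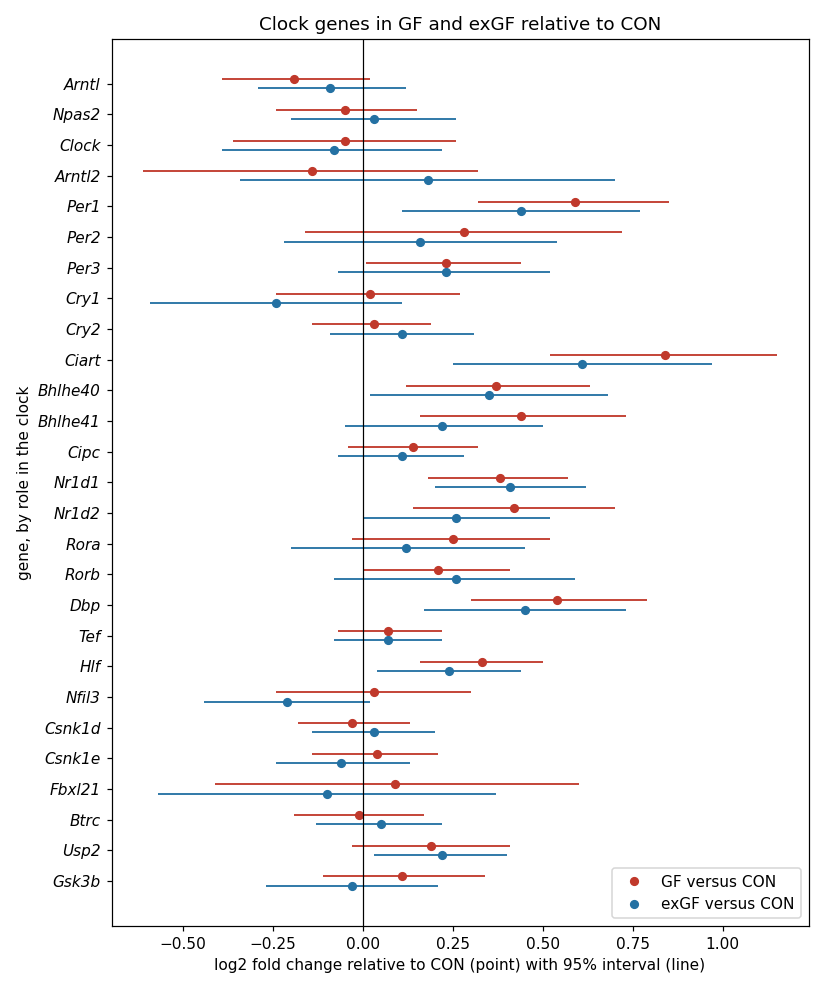
Log2 fold change from CON (horizontal axis) of the 10 clock genes and 17 further clock genes (vertical axis, by role), with points for GF (red) and exGF (blue) and lines for the 95% interval of each edgeR estimate. Ciart, Per1 and Dbp have the highest GF values (0.84, 0.59 and 0.54), and the activators at the top lie between -0.19 and 0.18.

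A ratio of 2 genes within a library does not depend on how libraries are scaled. The count of Per1 divided by that of Arntl was 1.46, 1.27, 0.903 and 1.65 in CON, 2.13, 2.25, 2.25 and 2.26 in GF, and 1.52, 2.03, 1.64 and 2.31 in GFR1 to GFR4. All GF libraries exceeded all CON libraries, with little spread among them, and GFR1 and GFR3 fell below the highest CON library. For Dbp over Arntl the ratios were 0.524, 0.58, 0.336 and 0.39 in CON, 0.827, 0.742, 0.668 and 0.734 in GF, and 0.588, 0.578, 0.624 and 0.805 in GFR1 to GFR4. Again GF did not overlap CON, while GFR2, at 0.578, lay just below CON replicate 2. For Nr1d1 over Arntl the means were 1.74, 2.54 and 2.43 in CON, GF and exGF, with CON at 1.36 to 1.93 and GFR1, the lowest of the other 8 libraries, at 2.09. These ratios are a description, with no test.

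Relations between members from pool to pool were examined for Dbp alone, and pairs without Dbp were not tested. After each group's mean was subtracted, log2 CPM of Dbp was correlated with that of each other member over the 12 libraries, 9 relations in all, and none had a Benjamini-Hochberg adjusted p under 0.05 by 2-sided exact permutation within groups. The highest Pearson r was 0.46 with Nr1d1 (exact permutation p = 0.166, adjusted p = 0.531; Spearman rho 0.38, p = 0.254, adjusted p = 0.599). Without GFR2 and GFR4, the 2 libraries farthest from the median of Dbp, that r was 0.17. With Hlf the r was -0.52 (exact permutation p = 0.158, adjusted p = 0.531; rho -0.55, p = 0.108, adjusted p = 0.599), and without those 2 libraries it was -0.03, so the value rests on them. With Arntl it was -0.50 (exact permutation p = 0.22, adjusted p = 0.531; rho -0.30, p = 0.427, adjusted p = 0.599) and -0.65 without the 2 libraries. For Per1, Per2, Per3, Tef, Nr1d2 and Npas2 r ran from -0.38 to 0.33.

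Of 16022 other genes, the 10 whose group-centred log2 CPM over the 12 libraries was most like that of Dbp were Ebpl (Pearson r = 0.95), Tcn2 (0.95), Rxfp3 (0.94), Mmd2 (0.93), Lcat (0.93), Rgcc (0.92), Rbp4 (0.92), Pgm1 (0.91), Leprot (0.91) and Higd2a (0.91). The 5 with the lowest r were Ralgapa1 (-0.92), Hhipl1 (-0.92), Gm17276 (-0.91), Strbp (-0.91) and Cdc14b (-0.91). These values come from a search over all genes and carry no p, and 16.4% of the genes had an r above 0.5 and 13.4% an r under -0.5. Among clock genes outside the members, Bhlhe41 (0.54), Cry1 (0.53) and Ciart (0.47) had the highest r with Dbp, and Rora (-0.77) and Clock (-0.75) the lowest.

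Reads were counted without strand, so genes that overlap on opposite strands limit what some counts mean. Dbp shares 539 exon bases (18.01% of its merged exons) with Sphk2, Nr1d1 shares 263 (8.55%) with Thra, Tef shares 193 (2.45%) with the antisense gene Gm17597, and Arntl shares 33 (0.44%) with the antisense gene Gm45355. Reads from such stretches cannot be given to either gene by strand. Sphk2 was at 30.6, 27.8, 27.2 and 29.8 CPM in CON, 28.5, 23.2, 29.7 and 24.4 CPM in GF, and 23.5, 25.7, 30.1 and 26.7 CPM in GFR1 to GFR4, and its log2 fold change was -0.13 in GF and in exGF, opposite in sign to that of Dbp. Thra, the thyroid hormone receptor alpha gene, had a mean of 906 ± 88.5 CPM among CON libraries, 808 ± 46.6 among GF libraries and 767 ± 74.0 among exGF libraries (SD, n = 4 each), with log2 fold changes of -0.17 and -0.25, opposite in sign to those of Nr1d1. Gm17597 was at 0.595 to 1.34 CPM, far below Tef. Per3 overlaps Camta1 (238 CPM in CON), Npas2 the pseudogenes Gm20428 and Gm3617 (at most 0.341 CPM in a library), and Ciart the antisense gene C920021L13Rik (0.369 to 1.58 CPM), each with 0 shared exon bases.

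Promoter windows of the clock genes in RefSeq (GRCm38.p6, 250 bases before to 50 after a start) were searched on both strands for clock elements. Windows were found for 9 of the 10 members, Per2 having none listed. The E-box CACGTG was in a window of Per1 and Tef, 2 of 9 members, and in those of 8.09% of 27025 genes, and the E-prime box CACGTT in that of Nr1d1 (5.44% of genes). The D-box, TTATGTAA or TTACGTAA, was in the window of Per3 (1.23% of genes), the ROR element core, TAGGTCA or TGGGTCA, in that of Arntl (7.35%), and the cyclic AMP element TGACGTCA in that of Hlf (2.03%). The window of Ciart held 3 E-boxes, beginning 116, 58 and 44 bases before the start, and that of Per3 held 2 D-boxes, beginning 205 and 158 bases before it. A match is a description of the letters and shows no binding. The 250 bases before the start are printed below for Ciart, the clock gene that edgeR's quasi-likelihood test of all 8 libraries called in GF. They are also printed for Per1, Nr1d1, Per3 and Tef, the members with a whole E-box, E-prime box or D-box there. Each stretch runs from 5′ to 3′ on the strand of the gene, with the matched E-box, E-prime box or D-box in capitals. Tef has an E-box before each of its starts, and the stretch before the second is shown because all 250 bases before the other lie in annotated exons. They are chr3:95882229-95882478 for Ciart (minus strand, 23 of the bases in an annotated exon of Ciart itself), chr11:69098699-69098948 for Per1 (plus strand, 1 exon base), chr11:98775378-98775627 for Nr1d1 (minus strand, outside annotated genes), chr4:151044666-151044915 for Per3 (minus strand, in an intron of Camta1) and chr15:81811164-81811413 for Tef (plus strand, in an intron of Tef).
Ciart: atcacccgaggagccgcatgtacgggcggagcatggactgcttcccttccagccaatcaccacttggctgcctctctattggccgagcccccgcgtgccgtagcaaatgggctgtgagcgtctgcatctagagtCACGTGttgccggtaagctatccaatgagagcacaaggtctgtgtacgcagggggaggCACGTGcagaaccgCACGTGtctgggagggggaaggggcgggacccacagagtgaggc
Per1: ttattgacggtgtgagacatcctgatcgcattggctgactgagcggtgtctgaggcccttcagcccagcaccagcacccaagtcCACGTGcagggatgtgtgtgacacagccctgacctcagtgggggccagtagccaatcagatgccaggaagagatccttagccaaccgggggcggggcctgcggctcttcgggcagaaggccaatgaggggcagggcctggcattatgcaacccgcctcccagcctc
Nr1d1: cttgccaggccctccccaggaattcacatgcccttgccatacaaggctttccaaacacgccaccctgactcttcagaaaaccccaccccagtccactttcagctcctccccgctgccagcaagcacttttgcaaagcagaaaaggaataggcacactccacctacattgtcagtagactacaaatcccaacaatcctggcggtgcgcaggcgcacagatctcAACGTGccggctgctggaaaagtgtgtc
Per3: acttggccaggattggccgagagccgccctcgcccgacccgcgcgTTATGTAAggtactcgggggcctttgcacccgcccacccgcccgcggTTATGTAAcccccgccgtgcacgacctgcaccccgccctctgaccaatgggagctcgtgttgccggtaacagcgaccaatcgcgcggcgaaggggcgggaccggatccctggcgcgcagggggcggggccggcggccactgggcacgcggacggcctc
Tef: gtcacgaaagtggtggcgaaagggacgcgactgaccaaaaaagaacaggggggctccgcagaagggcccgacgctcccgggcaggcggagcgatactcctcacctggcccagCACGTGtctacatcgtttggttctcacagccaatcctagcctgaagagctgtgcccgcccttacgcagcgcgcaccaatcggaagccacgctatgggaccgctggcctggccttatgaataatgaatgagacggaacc

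Other transcripts that respond to state moved in part with the groups. The immediate early list, 15 genes that neuronal activity induces, summed to 1110.3, 742, 803 and 958 CPM in CON, 1232, 1200.4, 1417 and 1475 CPM in GF, and 1074, 1163, 891 and 1507 CPM in GFR1 to GFR4. All GF libraries were above all CON libraries, and the exGF libraries overlapped both. In GF edgeR called 1 of the 15, Nr4a2 (log2 fold change 1.02, SE 0.18, quasi-likelihood adjusted p = 0.0384), beside 0.251% of all genes. It counted 10 at an unadjusted p under 0.05, all higher, beside 8.69% of all genes in either direction. The median log2 fold change of the list was 0.47. In exGF edgeR called 0 and counted 3 (5.33% of all genes), with a median of 0.30, and between GF and exGF it called 0 and counted 2 (6.65%). The call of Nr4a2 was lost without CON replicate 3 (edgeR quasi-likelihood adjusted p = 0.134), without GF replicate 3 (0.118) and in an edgeR fit of all 12 libraries (0.191), while its log2 fold change there was 1.016, 1.005 and 1.018. Arc (means of 231, 413 and 354 CPM in CON, GF and exGF) and Egr1 (269, 374 and 334 CPM) were the most abundant, Egr1 leading in CON and Arc in the other groups, and no gene of the list was at 0. The part of this difference in the values of Per1 and the other members was not tested.

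The sums of the glucocorticoid-responsive list overlapped between groups. Its 14 genes, led by Klf9 (143, 162 and 147 CPM in CON, GF and exGF), summed to 549, 474, 530.2 and 584 CPM in CON, 546, 600.4, 538 and 577 CPM in GF, and 492, 497, 559 and 571 CPM in GFR1 to GFR4. EdgeR called 0 of them in each comparison. At an unadjusted p under 0.05 it counted 2 in GF (8.69% of all genes), 0 in exGF (5.33%) and 2 between GF and exGF (6.65%). The 2 in GF were Sgk1 (log2 fold change 0.42, SE 0.12, adjusted p = 0.244) and Tsc22d3 (0.41, SE 0.09, adjusted p = 0.125), by edgeR's quasi-likelihood test. Of the 14 genes, 9 had a positive value in GF and 5 a negative value. Single genes of the list that did not overlap were 1 in GF versus CON (5.08% of all genes) and 0 in exGF versus CON (3.31%). Between GF and exGF 1 did not overlap (3.32% of all genes). It was Tsc22d3 in both comparisons, and it was higher in GF.

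Cell type markers also differed between groups, and in bulk RNA fewer cells of a type and less RNA per cell cannot be told apart. The 7 mature oligodendrocyte markers summed to 1713, 1712, 1409 and 1464 CPM in CON, 2773, 2160.2, 3771 and 2788 CPM in GF, and 2019, 1531, 1425 and 2429.8 CPM in GFR1 to GFR4. Mbp was the most abundant (1077, 1955 and 1262 CPM on average), and none was at 0. EdgeR called 4 of the 7 higher in GF (Mobp, Cldn11, Mbp and Mog) and 0 in exGF, where 0.251% and 0.0696% of all genes were called. The 6 meningeal markers, led by Igf2, summed to 207, 172, 162 and 149.5 CPM in CON, 103, 127, 126 and 136 CPM in GF, and 115, 130, 153 and 133 CPM in GFR1 to GFR4, with 1 called lower in GF (Col1a2) and 0 in exGF, and none was at 0. The part of either cell type in the clock gene values was not tested. Of the remaining lists, edgeR called 0 genes in every comparison: 7 cortical neuron, 6 striatal, 5 choroid plexus, 5 endothelial, 5 microglial, 5 astrocyte and 5 blood markers, of which 3 choroid plexus and 4 blood markers passed the filter. At an unadjusted p under 0.05 it counted at most 4 in a list (microglia, lower in exGF than in CON, beside 5.33% of all genes in either direction). The sums of some of these lists still moved with the group. For cortical neurons all GF libraries (9705 to 10488 CPM) were above all CON libraries (8459.8 to 9390 CPM), and for microglia all exGF libraries (251 to 268 CPM) were below all CON libraries (284 to 326 CPM). Mean sums in CON, GF and exGF were 8976, 9959 and 9438 CPM for cortical neurons, 167, 154 and 172 for striatum, 6.12, 6.06 and 4.84 for choroid plexus, 219, 219.9 and 244 for endothelium, 302, 273 and 259 for microglia, 3719, 3723 and 3572 for astrocytes, and 148, 149 and 111 for blood.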

How the data were processed

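The authors made the count of each of 41388 Ensembl genes with HTSeq-count, without strand, from read pairs trimmed by Trimmomatic and placed on GRCm38 by STAR, and deposited these raw counts. The kit marked strand, but the counting did not use it. The 4 columns named GFR were taken as the exGF libraries and not matched to single exGF samples. HTSeq's categories for pairs given to no gene were left out (4.57% to 7.31% outside genes, 1.10% to 1.32% ambiguous and 12.95% to 19.23% not uniquely aligned).

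R 4.3.3, edgeR 4.0.16 and DESeq2 1.42.0 were used. Each pair of groups was filtered with filterByExpr, normalized by TMM and tested with edgeR's quasi-likelihood test over all genes, with Benjamini-Hochberg adjustment and a threshold of 0.1. Standard errors were taken from the F statistic. Gene names, exon lengths and overlaps came from GENCODE M21 (GRCm38), where 40340 genes had a name. RPKM was CPM per kilobase of merged exons. Correlations used log2 CPM with a prior count of 1 and 13824 permutations. Scripts were tested on simulated data, where unchanged genes made up more of the calls than the threshold allows, so a call at this threshold is less firm than its adjusted p states.

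Named genes were the 10 members, Clock, Cry1, Cry2, Ciart, Nfil3, other listed clock genes with an unadjusted p under 0.05, called genes of the response lists, the 10 genes most like Dbp and the 5 least, and overlapping genes. The called cell type markers, Snap25, Sgk1 and Tsc22d3 were named after values were seen. The within-library ratios, the coefficients of variation, the overlap of Ciart and the leaving out of libraries high in striatal markers were also chosen after values were seen. Genes withheld for evaluation were left out of the lists and are not reported. The members and lists were chosen with earlier results of these data known.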

Additional observations from a re-analysis of the deposited data

Results flagged for a closer look

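In 117 groups of 4 libraries (27 clock genes and 12 marker or response lists in 3 groups), 5 held a library whose gap to its neighbour took most of the range of the group, where chance gives about 1 in 20. All 5 were lists, and no clock gene passed that bound. The striatal list summed to 266 CPM in CON replicate 2 and to 163 CPM in GF replicate 3. The choroid plexus list summed to 14.2 CPM in GF replicate 1, against 3.22 to 3.53 CPM in the other GF libraries. The endothelial list stood at 226 CPM in GFR4, below the other exGF libraries, and the microglial list at 300.1 CPM in GF replicate 2, above the other GF libraries.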

How the results depend on the processing

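In GF versus CON, edgeR called 0 members, and 4 with no filter on low counts (Per1, Dbp, Nr1d1 and Nr1d2), 4 with DESeq2, 4 with a spline offset for GC content and length (both times Per1, Dbp, Hlf and Nr1d1), 0 to 1 when a library was left out and 1 without the libraries high in striatal markers, an alternative chosen after seeing the data. That alternative leaves out CON replicate 2 in GF versus CON and GFR4 in GF versus exGF, so there it is the same fit as leaving out that library alone. In exGF versus CON the count was 1 with DESeq2 and 1 with the offset (Nr1d1), and otherwise 0. In GF versus exGF it was 0 throughout. Genes called in all moved from 39 to 221 with no filter, 194 with DESeq2, 122 with the offset and 60 without GF replicate 2 in GF versus CON, from 11 to 48, 55 and 17 by the first 3 and 17 without the striatal-high libraries in exGF versus CON, and from 0 to 32, 17 and 1 by the first 3, 2 in a fit of all 12 libraries, 6 without GFR4 and 7 without GFR1 in GF versus exGF. The cause was not tested. RLE normalization changed no count of called members. A threshold of 0.05 could not change these counts, as edgeR called 0 members at 0.1.

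With the replicate number as a block, 2 members were called among 51 genes in GF versus CON (Per1, adjusted p = 0.0939, and Dbp, 0.0943, edgeR). Deviations of CON and GF libraries of the same number correlated at -0.032, -0.054, -0.043 and 0.026, and no library correlated best with that of its own number. These values show no strong pairing by number, but they cannot exclude a weak one. The numbers of the GFR columns were not matched to exGF samples, so no block was fitted for exGF.

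Over 820 log2 fold changes of 20 named genes under the alternatives, with each fit counted 1 time, 758 kept their direction and side of the threshold, 19 passed it newly (all of them members), 5 no longer passed it and 38 changed sign. The sign changed for Cry1 in GF versus CON with no filter (-0.001), and in GF versus exGF Per3 (0.093), Tef (0.073), Nr1d1 (0.009) and Usp2 (0.016) with the offset and Tef (0.002), Nr1d1 (0.034) and Clock (-0.074) without GFR4, the striatal-high library. Leaving out 1 library gave, in GF versus CON, -0.169 to 0.065 for Clock, -0.054 to 0.062 for Cry1, -0.015 to 0.056 for Cry2, -0.085 to 0.095 for Nfil3 and -0.095 to 0.001 for Npas2. It gave, in exGF versus CON, -0.173 to 0.035 for Clock and -0.015 to 0.121 for Npas2. In GF versus exGF the ranges were -0.053 to 0.296 for Per2, -0.103 to 0.104 for Per3, -0.027 to 0.004 for Tef, -0.121 to 0.034 for Nr1d1, -0.092 to 0.112 for Clock, -0.055 to 0.197 for Bhlhe40, -0.192 to 0.089 for Rorb and -0.135 to 0.024 for Usp2. Without the 2 libraries farthest from the Dbp median, r of Dbp was -0.16 with Per1 and 0.01 with Npas2, against 0.13 and -0.14. The cause was not tested.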
